A study of Drosophila melanogaster with 3 samples.

Results

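The Toll family receptor genes of Drosophila melanogaster are described here by where the zinc finger protein wek was found on them. They were taken as a list of 8 named genes (Tl, 18w, Toll-4, Tehao, Toll-6, Toll-7, Tollo and Toll-9) out of 13968 protein-coding genes on the chromosome arms. The rule that lists them uses no measured value, but they were chosen with earlier results of these data known. The data are chromatin immunoprecipitation sequencing (ChIP-seq) of whole embryos aged 0 to 16 hours, both sexes pooled, from a transgenic line that carries wek with green fluorescent protein at its C terminus. There is 1 group, made of 3 biological replicates of that line, so no conditions can be compared and no p-value is given. The free-text description of each library names it an input control, while its assay title and antibody label name a ChIP of wek, and the libraries are treated here as ChIP. The labels used here do not name the promoter that drives the fusion, and no embryos without the fusion were analysed here. All replicates carry the same donor label, so they are collections of 1 line.

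The deposited files list regions and not reads, and library depth cannot be read from them. A list of 30000 relaxed regions exists for each replicate and for the pooled replicates. A thresholded list of 3582 regions, called peaks below, was made by the authors with a reproducibility threshold. It holds exactly the 3582 pooled regions of highest signal, so whether a region is a peak follows from its pooled signal alone. Of the peaks, 3156 overlapped a region in all 3 relaxed replicate lists. Each region has a summit, the position of highest enrichment, and a signal, which is the value of the authors' caller. Rank 1 is the highest signal of a list. Peak signals had a median of 218 and started at 146. Replicate 2 stood apart, with 2216 regions at or below a q-value of 0.01, while 8919 and 9834 passed it in replicates 1 and 3.

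Toll receptors span the cell membrane, with leucine-rich repeats outside the cell and a Toll/interleukin receptor (TIR) domain inside it. Tl is the founding member. It is activated by the ligand Spätzle, sets up the dorsoventral axis of the early embryo and drives the antifungal response of the fat body. The protein wek is known as an adaptor that links the receptor Tl to Myd88. It also carries a ZAD domain and zinc fingers, which are features of DNA-binding proteins. The genes 18w, Toll-6 and Tollo are expressed in stripes along the early embryo and guide cell rearrangement during elongation of the body axis. Toll-6 and Toll-7 are also receptors for neurotrophin-like Spätzle proteins in the nervous system.

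The bases just upstream of the transcription start sites (TSSs) of Tollo, Tl and Toll-6 are shown because the strongest region of each of these genes had its summit within 50 bp of the TSS. Each run covers the 150 bases that end just before the TSS, on the plus strand of the RefSeq genome in dm6 coordinates, and none of it overlaps an annotated exon. Capitals mark matches to the GAGA repeat (GAGAGAG or its reverse complement), the element of GAGA factor. None of the other 14 elements described further on matched in these windows, and Toll-6 had no match to any.
Tollo, chr3L:15235469-15235618: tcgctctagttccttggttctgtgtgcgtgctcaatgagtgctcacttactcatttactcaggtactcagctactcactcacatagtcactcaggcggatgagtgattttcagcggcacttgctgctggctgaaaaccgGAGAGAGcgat
Tl, chr3R:26798891-26799040: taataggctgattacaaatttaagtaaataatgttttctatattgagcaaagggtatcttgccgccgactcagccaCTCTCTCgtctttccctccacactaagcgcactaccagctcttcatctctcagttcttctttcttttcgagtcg
Toll-6, chr3L:15336542-15336691: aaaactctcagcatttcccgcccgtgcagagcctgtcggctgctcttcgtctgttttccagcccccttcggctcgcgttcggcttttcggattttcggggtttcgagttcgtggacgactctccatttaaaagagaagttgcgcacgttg

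Peaks lay at 3 of the 8 receptor genes, Toll-7, 18w and Tollo. Each had a single peak, whose summit lay upstream of the gene and less than 500 bp away. The share of receptor genes with a peak within 500 bp of a TSS was therefore 37.5%, against 15.4% of all protein-coding genes. When the gene and 5 kb to each side were taken, the same 3 genes had a peak, against 40.7% of all protein-coding genes. The wider count is thus near the background. The receptor genes are longer than most, with a median length of 5909 bp against 2164 bp for all protein-coding genes, and so have more room for a region in the wider window.

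**Figure D1:**
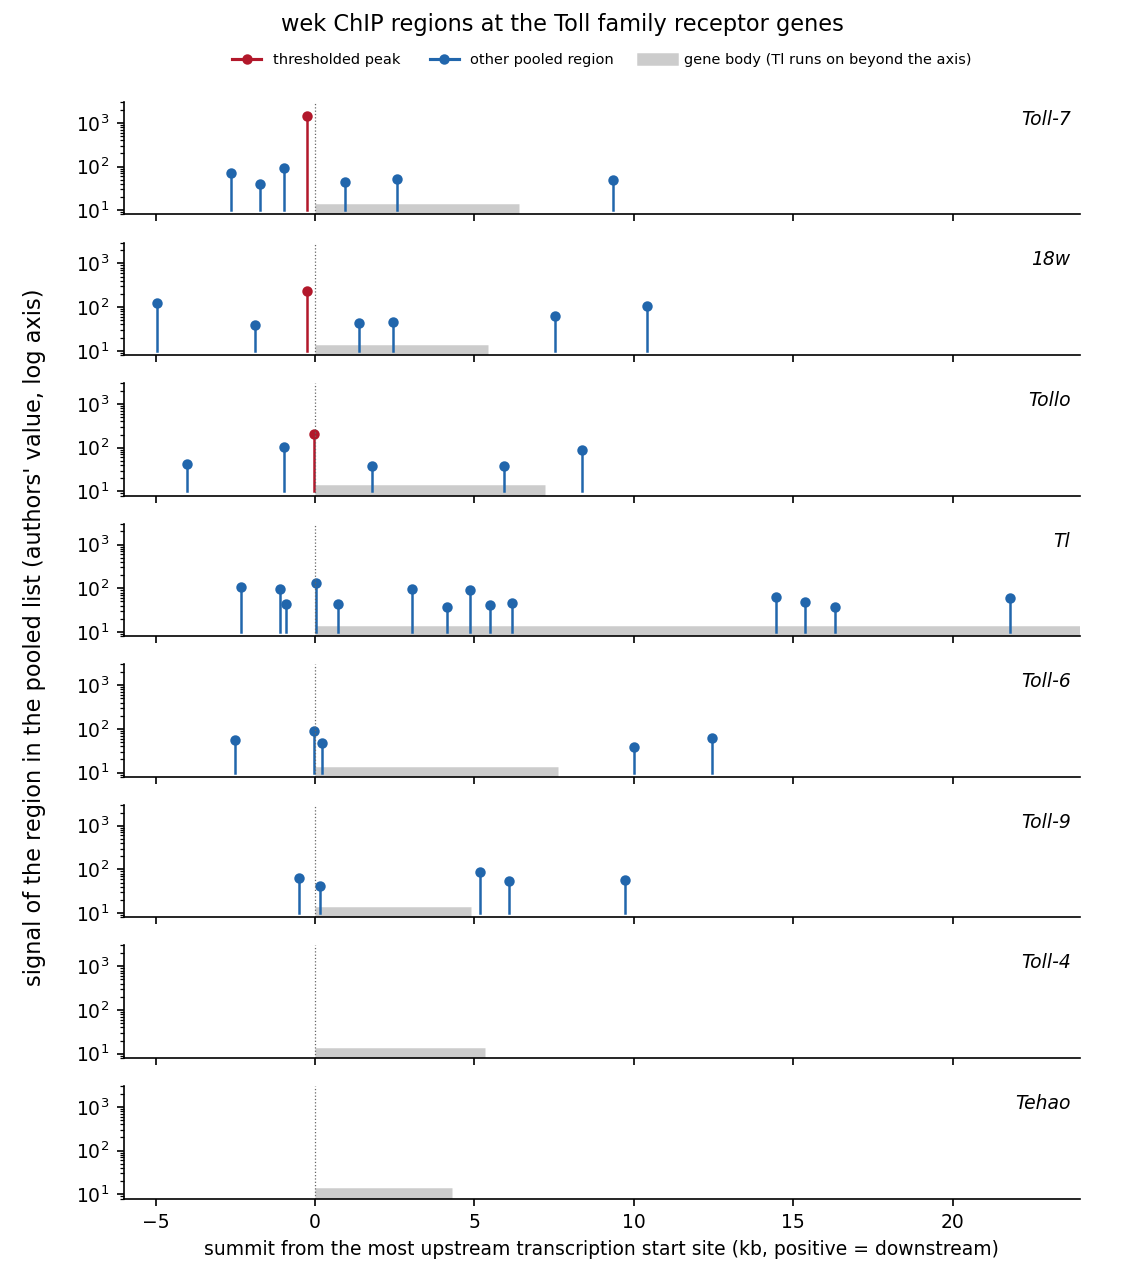
Regions of the pooled list at the 8 receptor genes, 1 gene per panel. The x axis is the distance of the summit from the most upstream TSS in kb, the y axis the signal in the pooled list on a log axis, and the grey bar the gene body. The 3 peaks (red) stand just upstream of Toll-7, 18w and Tollo, the 14 regions of Tl are spread from upstream of the gene into its introns, and Toll-4 and Tehao hold none.

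The peak at Toll-7 (FBgn0034476, 2R:19826578-19832973, plus strand) was the strongest of the family. It lies at 2R:19826152-19826522 and had a signal of 1433, which is rank 73 of the 3582 peaks. The overlapping region had ranks of 82, 62 and 56 in replicates 1, 2 and 3 (mean 66.7 ± 13.6, SD, n = 3). All 3 replicates thus placed it near the top of their lists, with signals of 727, 425 and 287, each on the scale of its own list. Its summit lay 259 bp upstream of the TSS in the pooled list, and at −261, −266 and −251 bp in replicates 1, 2 and 3, a spread of 15 bp. The next strongest region around Toll-7, 976 bp upstream, had a signal of 95.0, so the peak was 15.1 times higher. In the replicates this ratio was 11.7, 20.2 and 11.5. The peak stands apart from other promoters, since the nearest TSS of another coding gene, Obp56h of the odorant-binding proteins, is 10765 bp away.

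The peak at 18w (FBgn0287775, 2R:20111511-20116932, plus strand) was weaker and also present in every replicate. It lies at 2R:20111089-20111458 with a signal of 230.5 (rank 1646 of 3582). Its ranks were 2692, 1410 and 1842 in replicates 1, 2 and 3 (mean 1981 ± 652, SD, n = 3), and its signals 97.0, 63.7 and 58.2. The summit was at −237 bp in the pooled list and at −259, −246 and −248 bp in the replicates. The peaks of 18w and Toll-7 therefore sat at similar distances upstream of their TSSs. A further region lay near the edge of the 18w window, at −4961 bp, with a signal of 127 (rank 4461), below the lowest peak. It was found in all 3 replicates, with ranks of 3438, 6686 and 3389. In replicates 1 and 3 it was thus among the 3582 regions of highest signal. The 18w peak was 1.81 times higher than this region in the pooled list. In replicates 1, 2 and 3 its ratio to the next strongest region of the window was 1.15, 1.91 and 1.36. The nearest other coding TSS to the 18w peak, that of CG46443, is 34780 bp away, and the TSSs of 18w and Toll-7 are 284933 bp apart on the same strand.

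The peak at Tollo (FBgn0029114, 3L:15235619-15242832, plus strand) rested on replicates 1 and 3. It lies at 3L:15235397-15235766 with a signal of 209 (rank 1923 of 3582) and its summit at −37 bp. Its ranks were 1345 in replicate 1 and 1051 in replicate 3, but 19340 in replicate 2 (mean 7245 ± 10475, SD, n = 3). The signals were 142, 17.7 and 76.9 in replicates 1, 2 and 3. Without replicate 2 the mean rank was 1198. The summits of replicates 1 and 3 were at −39 and −79 bp, while the weak region of replicate 2 had its summit at −276 bp, outside the peak that it overlapped. In replicate 2, 71.9% of all peaks had an overlapping region among its 3582 of highest signal, called top regions below, and the Tollo peak had none. The shares were 85.9% in replicate 1 and 73.3% in replicate 3. The nearest other coding TSS, that of the peroxiredoxin gene Prx1, is 27738 bp away.

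**Figure D2:**
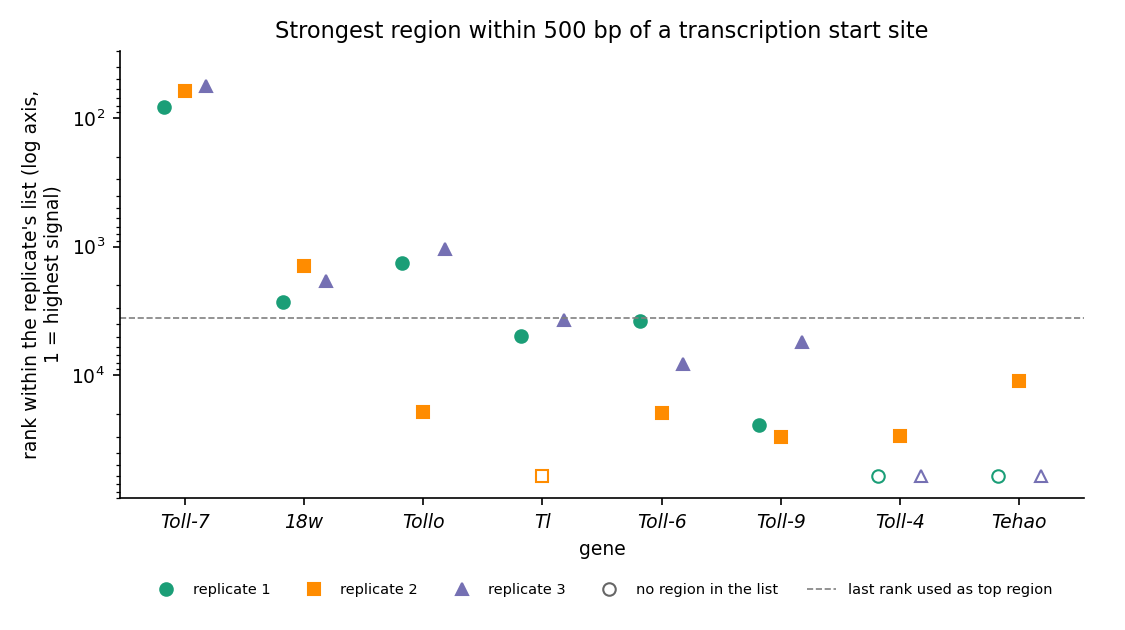
Rank of the strongest region within 500 bp of a TSS in each replicate's list (log axis, rank 1 at the top) for the 8 receptor genes; open symbols mark a replicate with no such region, and the dashed line is rank 3582. The points of Toll-7 lie between 56 and 82, those of 18w between 1410 and 2692, and the replicate 2 point of Tollo lies at 19340, far below the other two.

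Tl itself, the receptor to which wek is known to couple, had no peak. Its gene (FBgn0262473, 3R:26799041-26842403, plus strand) is the longest of the family at 43363 bp and held 14 pooled regions, of which 10 were in introns, 3 upstream and 1 in the 5′ UTR. The strongest was at the TSS, with the summit at 22 bp, a signal of 129.9 and rank 4322, below the lowest peak. Replicates 1 and 3 had it at ranks 4950 and 3696 with the summit at the same base, and replicate 2 had no overlapping region. The region 2318 bp upstream of the TSS was absent from another replicate, with ranks of 6219 and 2647 in replicates 1 and 2 and no region in replicate 3. The nearest peak to the TSS of Tl was 67698 bp away.

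Toll-6 had a region at its TSS that was also weaker than any peak. The gene (FBgn0036494) lies at 3L:15336692-15344315 on the plus strand, and the region's summit was at −22 bp and its signal 91.1 (rank 7679). Replicate 1 had it at rank 3772 and replicate 3 at rank 8134, with summits at −24 and −17 bp. The overlapping region of replicate 2 had rank 19470 and its summit at 297 bp. At Tl, Toll-6 and Tollo, the summits of replicates 1 and 3 thus lay within 100 bp of the TSS, and replicate 2 had none there. Tollo and Toll-6 are neighbours in the family, with TSSs 101073 bp apart on the same strand, and the peak nearest to the TSS of Toll-6 is the one at Tollo.

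**Figure D3:**
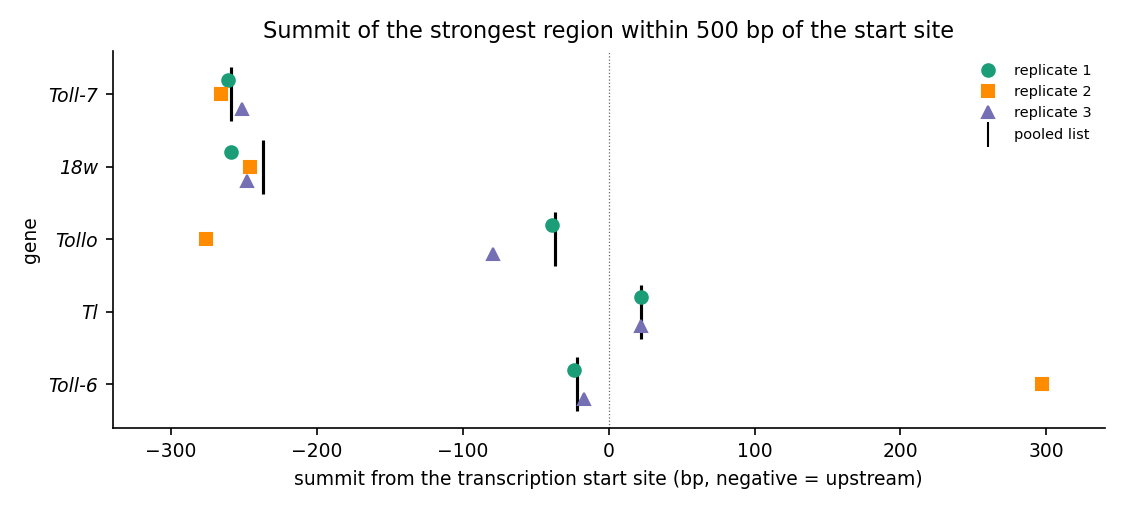
Position of the summit of the strongest region within 500 bp of the TSS, in bp from the TSS, for the 5 receptor genes whose strongest pooled region lies there; symbols are the replicates and the black bar is the pooled list. The replicates of Toll-7 and 18w lie between −266 and −246 bp, and at Tollo and Toll-6 replicate 2 lies away from the others.

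The remaining receptors, Toll-9, Toll-4 and Tehao, had no peak. At Toll-9 (FBgn0036978, 3L:20361843-20366724, minus strand), the receptor most like mammalian Toll-like receptors in sequence, 5 pooled regions were counted. The strongest had a signal of 88.1 (rank 8087) and lay downstream of the gene. It overlapped regions of rank 6810 in replicate 1 and rank 4847 in replicate 3, with −log10 q-values of 2.62 and 4.02, and none in replicate 2. The only one within 500 bp of a Toll-9 TSS had a signal of 41.3 (rank 25893) and overlapped a region of replicate 1 alone. A region just outside that limit, at −504 bp, reached 62.9 in signal, and its replicate ranks were 10305, 29878 and 5520. Toll-4 (FBgn0032095, 2L:9084107-9089440) and Tehao (FBgn0026760, 2L:13435622-13439930), both on the plus strand, had no pooled region within 5 kb. Replicate 2 listed 6 weak regions around Toll-4 and replicates 1 and 3 none. Around Tehao, replicates 2 and 3 listed 2 and 1, and replicate 1 none. The best rank among these was 4558, for a region of replicate 2 in the coding sequence of Toll-4.

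Regions of any strength were about as dense at the receptor genes as at other genes. Pooled regions lay within 500 bp of a TSS at 6 of the 8 receptors, against 52.0% of protein-coding genes, and within the gene or 5 kb at the same 6, against 84.0%. Per 10 kb of window the receptors had a median of 3.1 pooled regions, against 2.7 over all protein-coding genes. The values were 4.54 at 18w, 4.27 at Toll-7, 3.49 at Tollo, 3.36 at Toll-9, 2.84 at Toll-6, 2.62 at Tl and 0 at Toll-4 and Tehao. Of the 44 pooled regions at the receptors, 16 were upstream of the gene, 10 in introns, 9 downstream, 5 in coding sequence, 3 in a 5′ UTR and 1 in a 3′ UTR. Of the 44, 31.8% overlapped a region of every replicate, against 33.9% of all pooled regions. The strength of 1 region near the TSS, rather than the number of regions, therefore separated Toll-7 from the other receptors.

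The replicates gave the same picture for the stronger receptors. Top regions lay within 500 bp of a TSS of 3, 2 and 3 receptors in replicates 1, 2 and 3 (2.67 ± 0.577, SD, n = 3), against 16.0%, 13.0% and 16.1% of protein-coding genes. Toll-7 and 18w were among them in all 3 replicates, a pattern seen at 7.87% of protein-coding genes, and Tollo in replicates 1 and 3. Within the gene or 5 kb, each replicate had a top region at 3 receptors, against 41.5%, 39.1% and 40.5% of protein-coding genes. The third gene was Tollo in replicates 1 and 3 and Tl in replicate 2, so that 2 receptors were shared by all replicates, against 28.2% of protein-coding genes. Of the 3 receptor peaks, 2 overlapped a top region of every replicate, against 48.8% of all peaks. The authors selected the peaks from these same replicates, which makes the support a description only.

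The peaks at Toll-7, 18w and Tollo shared features that did not enter the choice of genes. All 3 genes consist of a single annotated exon, as does Toll-6, which has no peak. Single-exon genes seldom had a peak within 500 bp of a TSS, namely 149 of 2131 (6.99%), against 16.9% of genes with more exons. A GAGA repeat was found within 100 bp of the summit of all 3 receptor peaks, against 7.37% of all peaks and 4.68% of windows centred on coding TSSs. At Toll-7 it lay 58 bp from the summit, at 18w 65 bp and at Tollo 26 bp. Within 50 bp of the summit, a width chosen after the data were seen, Tollo alone kept a match, against 3.60% of all peaks. Around the replicates' own summits all 3 peaks had the repeat in replicates 1 and 3, and 18w and Toll-7 had it in replicate 2. The replicate summits of 18w and Toll-7 lay close to the pooled ones. Their windows thus cover nearly the same reference bases and give no separate support. The repeat was found at 8.93%, 3.85% and 11.2% of the top regions of replicates 1, 2 and 3, the lowest share being that of replicate 2. The region at the TSS of Tl also held a GAGA repeat, 90 bp from its summit, and the regions at Toll-6 and Toll-9 held none.

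No further element was common to the receptor peaks. The other 14 elements were searched on both strands, with R for A or G, Y for C or T, K for G or T and W for A or T. The share of all peaks that held each was 3.88% for the DRE (TATCGATA), 30.6% for its core (CGATA), which lies within the DRE, and 3.77% for the M1BP element (GGTCACAC). It was 6.78% for the promoter element Ohler 6 (KTYRGTAT), 10.9% for Ohler 7 (CAKCNCTR) and 23.6% for the TATA box (TATAAA). It was 1.01% for the site of Zelda (CAGGTAG), 36.9% for that of GATA factors (WGATAR), which can overlap the DRE core, and 11.1% for the homeodomain core (TAATTA). It was 12.1% for the E-box (CAGCTG), 4.61% for the site of Runt (AACCRCA), 2.90% for the word GAATACCC, 2.88% for the Dorsal consensus (GGRWWWYCC) and 7.73% for the CA repeat (CACACACA). Among these, the 18w peak held CA repeats, and the Toll-7 and Tollo peaks held none of the 14. The Dorsal consensus was in none of the receptors' regions near a TSS. Of the regions within 500 bp of the Toll-6 TSS, the one at −22 bp held the DRE core and a weaker one at 227 bp (rank 20743) the homeodomain core and the TATA box. The Toll-9 region at 172 bp held the DRE core, the GATA site and the homeodomain core. The GC content of the 201 bp at the summit was 34.3% at Toll-7, 56.2% at 18w and 49.8% at Tollo, against a median of 40.3% over all peaks.

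The peaks most like those of the receptors, by the distance of their log10 ranks in the 3 replicates, lay near genes of varied function. For Toll-7 they were nearest to CG11309, the transcription factor gene cbt and the arginine methyltransferase gene Art3 (distances 0.14, 0.15 and 0.178). For 18w, those given here were nearest to CG13713 and the transcription factor gene Adf1 (0.0465 and 0.047). For Tollo they were nearest to HmgZ, the cytoskeletal linker gene shot and the Wnt antagonist gene nkd (0.0812, 0.0909 and 0.112). These 3 had ranks in replicate 2 between 17668 and 21305 and ranks of at most 1715 in the other replicates. Their likeness to Tollo in this follows from the choice by rank and is no separate result. The comparison covers the 3156 peaks with an overlapping region in every replicate.

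Other genes of the pathway were read against the receptors by their role. Promoter peaks were found at 7 of 33 of them (21.2%), against 15.4% of all protein-coding genes. The ligand genes of the Spätzle type had 0 of 6, and the strongest region within 500 bp of a TSS among them was at spz, with a signal of 62.7. Of the extracellular cascade that cuts Spätzle and its inhibitors, 1 of 13 had a promoter peak. It lay at pip, a sulfotransferase gene needed for the ventral cue (signal 451, rank 555, mean replicate rank 719 ± 284, SD, n = 3). Of the cytoplasmic signalling genes, 6 of 13 had a promoter peak. The strongest was at tub, of the adaptor Tube, with a signal of 1461 and replicate ranks of 60, 90 and 82 (mean 77.3 ± 15.5, SD, n = 3). The peaks of Toll-7 and tub thus had similar ranks, 73 and 65 in the thresholded list. The others were mop (signal 677), a phosphatase-like gene of endocytosis, Myd88 (274), the receptor's adaptor, cact (269), the inhibitor of Dorsal, Traf6 (223) and the TIR domain gene Sarm (165), listed as Ect4. The Traf6 peak is also 136 bp from the TSS of GIIIspla2. Within the gene or 5 kb, 14 of the 33 genes had a peak, against 40.7% of all protein-coding genes. By role these were 1 of 6 ligand genes, 3 of 13 of the extracellular cascade and 10 of 13 cytoplasmic signalling genes. The genes differ in room for a peak. Sarm has 8 TSSs and 30 pooled regions within the gene or 5 kb, cact 4 and 15, and Pli 1 and 26. Each ligand gene has 1 TSS, as do tub, mop and Traf6. Of coding genes with 1 TSS, 11.1% had a promoter peak and 35.3% a peak within the gene or 5 kb. Whether this room sets the difference by role was not tested.

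**Figure D4:**
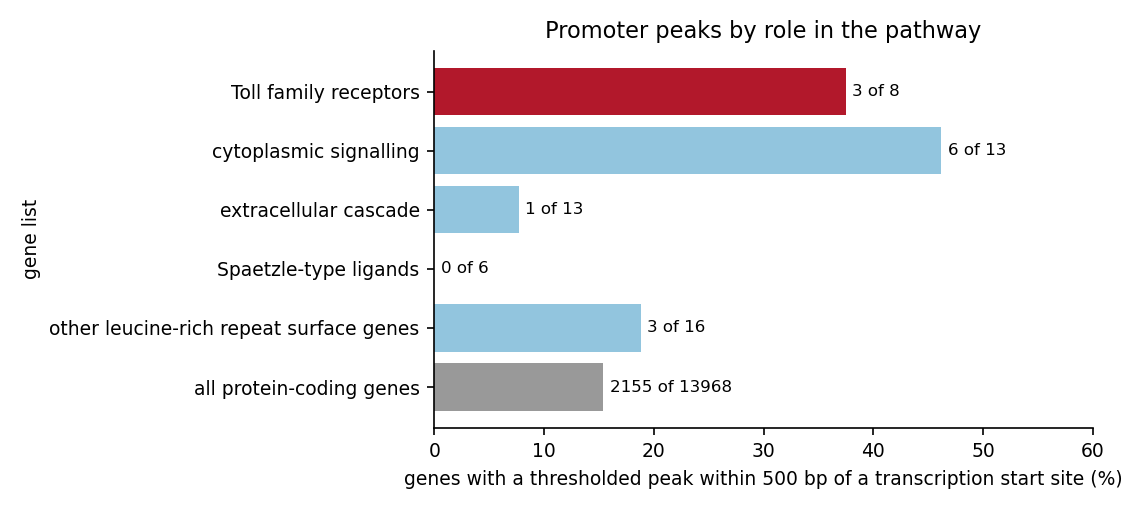
Share of genes with a peak within 500 bp of a TSS, by role in the pathway, with the count beside each bar and all protein-coding genes at the bottom. The receptors (3 of 8) and the cytoplasmic signalling genes (6 of 13) lie above the 15.4% of all protein-coding genes. The other leucine-rich repeat genes (3 of 16, 18.8%) lie near it, and the ligands have none within 500 bp.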

How the data were processed

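Regions were deposited as lists on dm6, per the labels. The authors called a relaxed list on each replicate and on the pooled replicates against 1 control, and thresholded them by the irreproducible discovery rate, per the deposited file lists. The sources used here do not give the aligner, the caller, the threshold or their versions. The signal of each region and the −log10 of its q-value were used as deposited by the authors, the signal only to rank and describe regions within a list. Depth is unknown. The 3582 peaks are exactly the 3582 pooled regions that rank first by signal. In 4 regions a summit beyond the region's end was moved to the last base.

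Genes and TSSs came from Ensembl release 115 (BDGP6.54), and sequence from RefSeq, both in dm6 coordinates; no region ran past an arm's end. A region was assigned to a gene by its summit, within the gene or 5 kb, or within 500 bp of any TSS, with Python 3.11.15, numpy 2.4.6 and pandas 2.3.3. The assignment was checked on simulated regions. For each replicate the 3582 regions of highest signal were its top regions, and regions were matched by an overlap of 1 bp. Of 49 other genes listed, all 49 were matched, 1 of them (Ect4, now Sarm) by synonym. Named genes were the 8 receptors, list members with a peak within 500 bp of a TSS, MstProx, wek, the nearest other coding gene of each receptor peak and the 3 peaks nearest to it in log10 rank, of which 1 is not reported here. Other genes were named after their values were seen (spz and genes named only with weaker regions). The receptors and all lists were chosen with earlier results of these data known, so counts carry no test, and each is set beside the share of all genes. Alternatives were the window, the threshold, the overlap and leaving out each replicate.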

Additional observations from a re-analysis of the deposited data

How the results depend on the processing

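Of 70 values under alternative settings, 60 stayed close to the main value, which for counts means within 1.5 times and for ranks and densities within 1 SD of the replicates. The mean ranks could not leave that range, because leaving out 1 of 3 replicates moves a mean by less than 1 SD. A count that went from 3 to 2 also stayed within 1.5 times. The 60 is therefore no measure of robustness. Inside the gene alone 0 receptors had a peak, since all 3 peaks are upstream, and within 200 bp of a TSS 1 did (Tollo). With whole relaxed lists 6 receptors had a region in every replicate, in place of 2. A 10 kb window added Toll-9, and a q-value of at most 0.01 in the pooled list added Tl. The GAGA repeat was within 50 bp of 1 receptor summit. Pooled regions per 10 kb were 2.05 at Toll-9 inside the gene, 4.46 and 4.41 at Tollo with 2 and 10 kb, and 1.31, 1.72 and 3.26 at Toll-6 inside the gene and with 2 and 10 kb; the wider or narrower window alone sets these. Leaving out each replicate gave 2 to 3 receptors with a promoter region in both others, 2 to 3 with one within 5 kb, 2 to 3 supported peaks and 5 to 7 other pathway genes. The mean ranks then ran from 59 to 72 for Toll-7, 1626 to 2267 for 18w and 1198 to 10342 for Tollo, whose call is not shared by replicate 2. No paired analysis was possible because there is 1 group. Lists without read counts give no limit for receptors with no region.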

Other observations

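Other cell surface genes with leucine-rich repeats are the nearest in structure to the outer part of the Toll receptors. Of 16 such genes, 7 had a peak within the gene or 5 kb, against 40.7% of all protein-coding genes. Within 500 bp of a TSS 3 had one (18.8%, against 15.4% of all protein-coding genes). Both counts are near the background. The 3 were caps and trn, related adhesion proteins of muscle and axon targeting, and Lapsyn, a synaptic protein. The summits lay 39, 5 and 47 bp upstream of the TSS, near the position seen at Tollo. The caps peak (signal 171) had ranks of 2454 and 895 in replicates 1 and 3, and the Lapsyn peak (signal 158) had ranks of 4057 and 886 there. Neither overlapped a region of replicate 2. The trn peak (signal 209.8) had ranks of 3727, 12642 and 652 in replicates 1, 2 and 3.

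At 11 of these 16 genes a pooled region lay within 500 bp of a TSS, and the strongest such region overlapped none of the 30000 regions of replicate 2 at 8 of the 11. At the Toll receptors this was so at 2 of 6. Over all protein-coding genes with such a region the figure was 3425 of 7257. The corresponding counts in replicate 1 were 2 of 11 and 0 of 6, against 687 of 7257. In replicate 3 they were 1 of 11 and 1 of 6, against 1069 of 7257. An overlap of 1 bp counts as present here. At Tollo and Toll-6 the overlapping region of replicate 2 had its summit at −276 and 297 bp, away from the pooled summits at −37 and −22 bp.

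MstProx, a further receptor gene of the Toll family that is not among the 8, had no pooled region within 5 kb. At wek itself 1 peak lay within the gene or 5 kb, as at 40.7% of all protein-coding genes, but none within 500 bp of the TSS. The strongest region within 500 bp of the TSS of wek had a signal of 77.1 (rank 9928), with the summit at 116 bp. It had ranks of 2549 and 23633 in replicates 1 and 3 and no region in replicate 2.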
